A study of Rattus norvegicus with 12 samples.

Results

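Alb-rich barcodes of whole cells, chosen as hepatocytes, were compared with those of nuclei in rat liver, to show which transcripts were counted at a different level when only the nucleus was sampled. The cells came from 4 total liver homogenate (TLH) libraries and the nuclei from 4 single-nucleus (snRNA-seq) libraries. A barcode was taken as a hepatocyte when Alb, which encodes serum albumin, made up at least 1% of its UMIs (unique molecular identifiers, the counted molecules), and when each of 4 marker sums was at most 1 UMI: Lyve1, Fcgr2b and Bmp2 of endothelial cells, Cd5l, Clec4f and Vsig4 of Kupffer cells, Ecm1, Col3a1 and Colec11 of mesenchymal cells, and Nkg7 and Gzma of NK and T cells. TLH barcodes also needed at least 2000 UMIs with at most 40% from mitochondrial (Mt-) genes, and nuclei at least 1000 UMIs with at most 10%. These limits left 24494 rule-passing barcodes, 15305 cells and 9189 nuclei, of the 253683 barcodes in the 8 libraries and the 270029 in the whole series. Before the hepatocyte rule, 34344 barcodes passed the limits on UMIs and Mt- genes.

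Each assay held 2 Dark Agouti (DA) and 2 Lewis (LEW) libraries from healthy, untreated male rats, whose age is 8 to 10 weeks in the series' text; the study's methods give an older range, which was not settled here. TLH cells were released by 2-step collagenase digestion of fresh liver, profiled with 10x Genomics 3′ version 2 chemistry and sequenced on an Illumina HiSeq. Nuclei were extracted in CHAPS with salts and Tris (CST) from snap-frozen liver pieces of what the study describes as additional rats, profiled with version 3 chemistry and sequenced on an Illumina NovaSeq. The assay, the chemistry, the sequencer and the handling of the tissue therefore changed together and cannot be told apart in these 8 libraries; rule-passing barcodes of 2 immune-enriched libraries of whole cells, 1 per strain and made with version 3 chemistry, are set beside them where named (148 DA and 1571 LEW barcodes, in which Mt- genes took up 34.3% and 29.2% of UMIs).

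An mRNA is transcribed and spliced in the nucleus, exported, and then translated and degraded in the cytoplasm. RNA of a nucleus therefore holds transcripts that are still being made, are exported slowly or keep introns, while RNA of a whole cell is mostly cytoplasmic and rich in long-lived mRNAs such as those of ribosomal and mitochondrial proteins. Hepatocytes secrete most plasma proteins, run the urea cycle and gluconeogenesis, and clear drugs and hormones through cytochrome P450 enzymes and membrane transporters.

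By Alb share, the rule set barcodes with endothelial markers apart better in nuclei than in cells, but in nuclei a high Alb share also went with low depth. Barcodes of the nuclei libraries below their median depth had a median Alb share of 5.2% to 5.8%. In rule-passing nuclei of 3000 or more UMIs it was 1.4% to 3.7%. Among TLH barcodes that carried at least 3 UMIs of the endothelial markers, 93.3% to 100% per library still passed the Alb limit, and their median Alb share was 1.56% to 2.38% against 1.84% to 3.35% in the rule-passing barcodes of the same libraries. Hnf4a, a transcription factor of hepatocytes, had a UMI in 26.7% to 41.2% of those endothelial-marker cells and in 30.1% to 46.0% of rule-passing cells. Among nuclei, 39.4% to 73.3% of endothelial-marker barcodes passed the Alb limit, with a median Alb share of 0.787% to 1.47% against 3.82% to 5.81% in rule-passing nuclei. Alb thus did not set hepatocytes apart from droplets with endothelial markers in TLH, and cells below means TLH barcodes that passed the rule, not a cell type. Markers of hepatocytes that the rule did not use were present: Ttr, Serpina1 and Tf had a UMI in 99.4% or more of rule-passing barcodes of every library, and Cps1 in 98.9% to 99.6% of cells and 92.0% to 94.8% of nuclei. Apoa1 was found in 95.18% to 98.75% of cells and 87.15% to 96.71% of nuclei, and Apob in 90.74% to 97.4% and 96.42% to 99.3%. In TLH endothelial-marker barcodes Ttr, Serpina1 and Tf were at 100% and Cps1 at 96.77% to 98.93%. Detection of these genes therefore does not set hepatocytes apart in TLH. Among endothelial-marker nuclei, Tf had a UMI in 98.54% to 100%, Ttr in 88.32% to 100% and Serpina1 in 85.4% to 98.84%. Detection of Tf, Ttr and Serpina1 was thus common there too. Cps1 was found in 59.85% to 80.23% of endothelial-marker nuclei. Hnf4a was found in 21.36% to 31.4% of them, against 36.71% to 44.53% of rule-passing nuclei. Doublets were not called. Of the nuclei libraries, any pair shared 8 to 24 barcode sequences in all and 0 to 5 among rule-passing ones; those of TLH libraries were not used here.

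UMIs were summed over the rule-passing barcodes of each library, giving 3632234 to 18832777 UMIs for cells and 2876382 to 7932639 for nuclei. The median barcode had 2266 to 2507 UMIs in cells and 1424 to 1671 in nuclei. TLH DA replicate 2 stood apart with a median of 12.4% Mt- UMIs, against 4.22% to 4.46% in the other TLH libraries and 3.01% to 3.81% in nuclei. Animal numbers in the names of the deposited files pair the libraries of the assays differently from the replicate numbers in DA, although the study describes the nuclei as coming from other rats; the p-values measure the spread between these libraries. Levels are CPM, UMIs scaled to a common library total and then by TMM factors. TMM sets the bulk of genes, not the total, equal between libraries. Differences are log2 nuclei over cells, from edgeR's quasi-likelihood test with strain as a covariate. That test gives no standard error (SE). The SE was taken as the size of the difference over the square root of the test's F statistic. Adjusted p is by the Benjamini-Hochberg method over all genes tested.

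Most genes differed between the assays. Of 10204 genes tested, 3540 (34.7%) were higher in nuclei and 3287 (32.2%) were higher in cells at an adjusted p under 0.05, and the median difference over all genes was 0.08. With a change of at least 2-fold added, 2454 (24%) were higher in nuclei and 2134 (20.9%) in cells. All nuclei libraries lay above all cell libraries for 2883 genes (28.3%), and all cell libraries above all nuclei libraries for 2815 (27.6%). The split depended on the scaling. With library totals alone the median gene lay 0.81 above 0, and 5811 genes (56.9%) were higher in nuclei against 1653 (16.2%) in cells, or 4434 (43.5%) against 1024 (10%) at 2-fold, so each direction below is relative to the bulk of genes. The counts also depended on the rule: with a stricter one, at least 2% Alb and 0 UMIs of each marker sum, 2013 and 1961 of 7483 genes were called, or 945 and 889 at 2-fold. The stricter rule kept barcodes of another kind, 333 of the 1534 in TLH DA replicate 1. Median Mt- UMIs of TLH libraries were 12.8% to 19.6%, against 4.22% to 12.4% by the main rule. Nuclei had medians of 1273 to 1322 UMIs and 5.67% to 6.76% Alb, against 1424 to 1671 and 3.82% to 5.81%. A call lost with it is therefore not read as a loss in purer hepatocytes. Without TLH DA replicate 2 the counts by TMM were 3310 and 3094 of 10120 genes. A sum over barcodes does not tell a shift in every barcode from a shift in some. With whole cells of version 3 chemistry in place of TLH cells, 49.6% of 9940 genes were called. Of these genes, 2564 (25.8%) were higher in nuclei and 2363 (23.8%) in cells. That comparison had 2 cell libraries in place of 4, so a call lost there need not mean a smaller difference. The plot of level against difference shows where the gene groups described below fell.

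**Figure D1:**
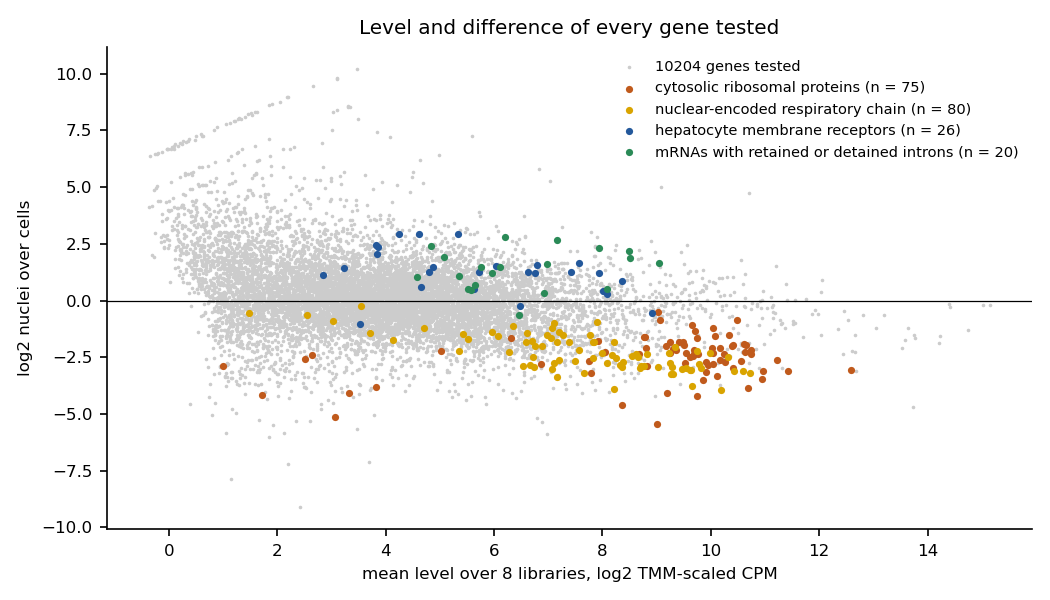
Each point is 1 of the 10204 genes tested, placed by its mean level over the 8 libraries (log2 TMM-scaled CPM) and its log2 difference, nuclei over cells; colours mark the tested members of 4 gene lists. Under TMM scaling the ribosomal protein and respiratory chain genes lie below 0 (with library totals alone Rpl3, Ndufaf1, Ndufaf4 and Ndufaf7 lay above it), while most membrane receptors and most mRNAs with retained introns lie above it.

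Of the 10 genes with the largest differences towards nuclei, 6 were transcripts named only by their genomic clone and 4 were named protein-coding genes. AABR07065124.2 had the largest difference and measured 0 and 1.1 CPM in DA cells, 0.123 and 0.622 in LEW cells, 130.3 and 57.6 in DA nuclei, and 18.8 and 178 in LEW nuclei. The difference was 7.27 ± 1.15 on the log2 scale, 154-fold higher in nuclei (adjusted p = 0.002). Its nuclei libraries spread widely, with LEW replicate 1 the lowest; the difference was 8.47 without TLH DA replicate 2 and 6.53 without nuclei LEW replicate 2.

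The clone-named transcripts with the highest levels of the 6 were 2 others. AABR07000398.1 measured 22.9 and 38.2 CPM in DA cells, 36.3 and 30.5 in LEW cells, 911 and 1594 in DA nuclei, and 529 and 1170.1 in LEW nuclei. This came to 5.00 ± 0.35 (SE) on the log2 scale (adjusted p = 6.3e-08), or 32.0-fold higher in nuclei. AC134224.1 measured 49.5 and 174 CPM in DA cells, 138 and 117 in LEW cells, 3773 and 3497 in DA nuclei, and 1633 and 3928 in LEW nuclei. Its log2 difference was 4.73 ± 0.43, with an adjusted p = 9.1e-07. The 10 genes were chosen among those whose assays did not overlap, so their separation is no finding; LEW replicate 1 was the lowest of the nuclei in both.

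AC134224.2, named from the same clone as AC134224.1, differed by 5.29 ± 0.46, adjusted p = 3.4e-06, whereas AC134224.3 of that clone overlapped between the assays, at 16116 to 48687 CPM in cells and 18785 to 40860 in nuclei (-0.18 ± 0.36, adjusted p = 0.67). How reads were divided among these related annotations is not known, so their values are uncertain as values of separate genes. With version 3 cells as the comparison, the difference of AC134224.1 was 2.45 (adjusted p = 0.00028), that of AC134224.2 was 1.19 (adjusted p = 0.0095), that of AC134224.3 was 3.31 (adjusted p = 0.00012), and that of AABR07000398.1 was 0.76 (adjusted p = 0.14), so the last was not called there.

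Of the protein-coding genes among the 10, Ttc39a and Hcn3 came next in size of difference. Hcn3, which encodes a hyperpolarization-activated cation channel, measured 1.97 and 2.72 CPM in DA cells, 7.98 and 2.90 in LEW cells, 133 and 189.5 in DA nuclei, and 258 and 320.2 in LEW nuclei. Nuclei were thus 56.4-fold higher, a log2 difference of 5.82 ± 0.31 (SE, adjusted p = 1.1e-08). In the rat assembly GRCr8 its neighbours are Pklr, the pyruvate kinase of liver, and Clk2; Pklr averaged 187 CPM in cells and 262 in nuclei, a difference of 0.45 that was not called, although several alternatives called it (0.47 to 1.18), among them leaving out nuclei DA replicate 1 (0.59). Ttc39a measured 0.328 and 0.954 CPM in DA cells, 0.737 and 0.414 in LEW cells, 102 and 48.7 in DA nuclei, and 53.8 and 45.3 in LEW nuclei. The difference was 6.42 ± 0.33 on the log2 scale, 85.7-fold higher in nuclei (adjusted p = 1.1e-08). Ppp2r3a, a regulatory subunit of protein phosphatase 2A, measured 6.55 and 5.87 CPM in DA cells, 8.35 and 4.14 in LEW cells, 142 and 113 in DA nuclei, and 63.4 and 80.6 in LEW nuclei. This came to 3.92 ± 0.26 (SE) on the log2 scale (adjusted p = 3.7e-08), or 15.2-fold higher in nuclei.

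Lpin1, a phosphatidate phosphatase of triglyceride synthesis, was also in this group, but 1 nuclei library carried most of it. It measured 5.24 and 26.6 CPM in DA cells, 3.56 and 3.73 in LEW cells, 602 and 47.2 in DA nuclei, and 31.8 and 28.8 in LEW nuclei. Its log2 difference was 3.75 ± 1.00, with an adjusted p = 0.018. Without nuclei DA replicate 1 the difference was 2.31 (adjusted p = 0.012), and without TLH DA replicate 2 it was 4.08 (adjusted p = 0.055); the stricter rule gave 2.69 (adjusted p = 0.055) and the replicate block 3.20 (adjusted p = 0.12). The remaining transcripts were AABR07062466.1 (5.20 ± 0.45, adjusted p = 2.9e-06, or 4.60 without TLH DA replicate 2 and 5.83 without TLH LEW replicate 2) and AABR07007055.1 (4.4 ± 0.37, adjusted p = 1.1e-06). Of the 10 genes, 8 were still higher in nuclei by the test against version 3 cells, and the other 2, AABR07000398.1 and Lpin1, kept the direction.

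**Figure D2:**
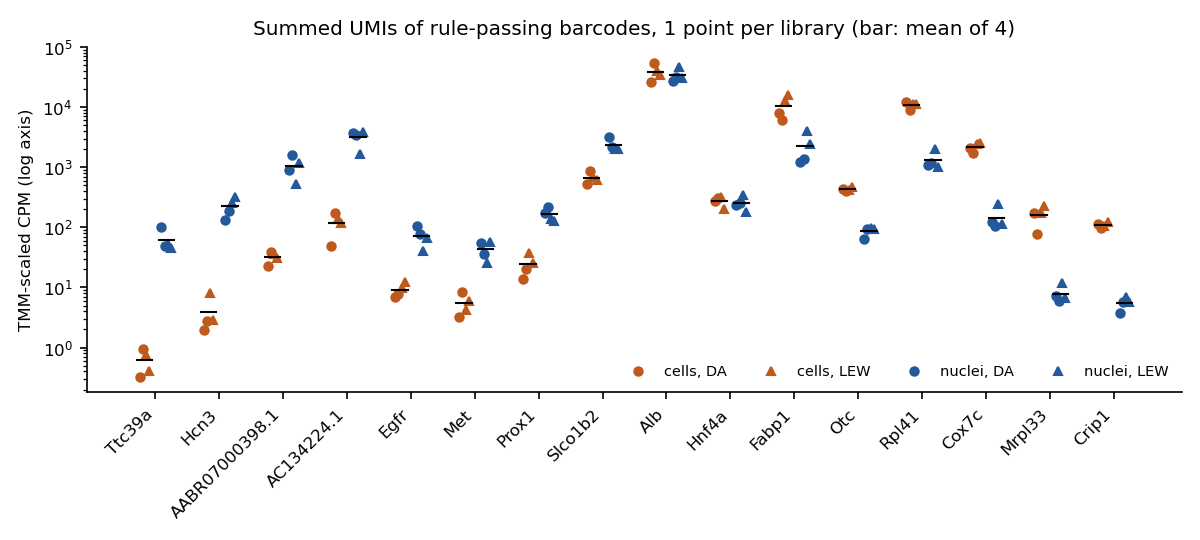
Levels of 16 genes in TMM-scaled CPM on a log axis, with 1 point per library (orange for cells, blue for nuclei, circles for DA, triangles for LEW) and a bar at the mean of 4. The 8 genes on the left were higher in every nuclei library, Alb and Hnf4a overlapped between the assays, and the 6 genes on the right were higher in every cell library. Over all genes tested, 28.3% were higher in every nuclei library and 27.6% in every cell library.

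Classic nuclear non-coding RNAs could not be read. Of 24 listed, only 2 were named in the gene list of the files and 1, Tug1, was tested; it measured 8.70 to 9.83 CPM in cells and 9.39 to 11.5 in nuclei (0.11 ± 0.19, adjusted p = 0.63). Malat1, Neat1 and the rest were not analysed here.

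mRNAs known to keep introns in the nucleus were higher in nuclei in most cases. Of 20 tested, 17 were higher in nuclei (34.7% of all genes), 14 of them by at least 2-fold (24%), 1 was higher in cells and 2 were not called; the list's median was 1.49 against 0.08 over all genes. Ddx17, an RNA helicase, measured 22.0 and 53.7 CPM in DA cells, 39.4 and 37.9 in LEW cells, 334 and 244 in DA nuclei, and 148 and 262 in LEW nuclei. Nuclei were thus 6.28-fold higher, a log2 difference of 2.65 ± 0.29 (SE, adjusted p = 2.3e-06). Srrm2, a scaffold protein of nuclear speckles, measured 58.7 and 65.5 CPM in DA cells, 121 and 92.6 in LEW cells, 536 and 402 in DA nuclei, and 255 and 437 in LEW nuclei. The difference was 2.30 ± 0.29 on the log2 scale, 4.92-fold higher in nuclei (adjusted p = 6.4e-06). In both, all nuclei libraries exceeded all cell libraries, as for 28.3% of all genes, and LEW replicate 1 was the lowest of the nuclei.

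Slc7a2, which encodes an arginine transporter and is known in mouse as a case of an mRNA held in nuclear bodies, averaged 15.3 CPM in cells and 132 in nuclei (2.79 ± 0.50, adjusted p = 0.0012). Ddx5, another helicase, averaged 248 CPM in cells and 810.5 in nuclei (1.64 ± 0.26, adjusted p = 5.8e-05), Prpf4b, a splicing kinase, 132 CPM in cells and 583 in nuclei (2.16 ± 0.31, adjusted p = 2.4e-05) and Rsrp1 152 CPM in cells and 573 in nuclei (1.88 ± 0.38, adjusted p = 0.00088). Son, a speckle protein, measured 175 to 277 CPM in cells and 216 to 376 in nuclei and missed the threshold (0.49 ± 0.23, adjusted p = 0.068), which it passed in several alternatives, among them without nuclei LEW replicate 1 (0.73, adjusted p = 0.0015). Hnrnpu, which binds nascent RNA, was the exception, higher in cells at -0.62 ± 0.18, adjusted p = 0.0079, and its direction turned with library totals alone (0.12, adjusted p = 0.60), while against version 3 cells it was -0.60 (adjusted p = 0.055). The call of Rsrp1 was lost with the stricter rule (1.07, adjusted p = 0.15). Against version 3 cells, 19 of the 20 were higher in nuclei (25.8% of all genes), with a median of 1.33.

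Receptors at the hepatocyte surface were mostly higher in nuclei. Of 26 tested, 21 were higher in nuclei (34.7% of all genes), 18 by at least 2-fold (24%), 2 were higher in cells (32.2%) and 3 were not called, with a median of 1.26. Egfr, the receptor for epidermal growth factor, measured 6.88 and 7.78 CPM in DA cells, 9.70 and 12.2 in LEW cells, 103 and 77.2 in DA nuclei, and 39.9 and 67.6 in LEW nuclei. This came to 2.93 ± 0.29 (SE) on the log2 scale (adjusted p = 1.4e-06), or 7.62-fold higher in nuclei. Met, the receptor for hepatocyte growth factor, measured 3.28 and 8.37 CPM in DA cells, 4.18 and 6.01 in LEW cells, 55.5 and 36.5 in DA nuclei, and 25.1 and 57.3 in LEW nuclei. Its log2 difference was 2.91 ± 0.32, with an adjusted p = 6.2e-06. Gcgr, the glucagon receptor, measured 74.1 and 140.2 CPM in DA cells, 85.8 and 68.6 in LEW cells, 311 and 291 in DA nuclei, and 239 and 301 in LEW nuclei. Nuclei were thus 3.12-fold higher, a log2 difference of 1.64 ± 0.23 (SE, adjusted p = 1.8e-05). For these 3 receptors the groups did not overlap, as for 28.3% of all genes in this direction.

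Lrp6, a WNT co-receptor, averaged 4.32 CPM in cells and 33.4 in nuclei (2.93 ± 0.24, adjusted p = 1.5e-07), and Lepr, the leptin receptor, averaged 4.15 CPM in cells and 24.1 in nuclei (2.46 ± 0.21, adjusted p = 2.2e-07). Insr, the insulin receptor, averaged 16.6 CPM in cells and 39.5 in nuclei (1.25 ± 0.19, adjusted p = 3.2e-05), and Lrp1, a clearance receptor, 232 CPM in cells and 423 in nuclei (0.87 ± 0.23, adjusted p = 0.0032). Asgr2 and Ghr, the growth hormone receptor, were not called (0.28 ± 0.20, adjusted p = 0.24 and 0.41 ± 0.23, adjusted p = 0.13) but were higher in nuclei with the stricter rule (0.38 and 0.82). Asgr1, a subunit of the asialoglycoprotein receptor, was higher in cells at -0.54 ± 0.23, adjusted p = 0.046, a call that was lost without any 1 of TLH DA replicate 2, both TLH LEW libraries, nuclei DA replicate 2 and nuclei LEW replicate 2 (-0.57 to -0.36) and that library totals turned to 0.20 (adjusted p = 0.38); several other settings also removed it (-0.59 to -0.31). Prlr, the prolactin receptor, was higher in cells at -1.05 ± 0.31, adjusted p = 0.0093, with overlapping libraries, a call lost with library totals alone (-0.33), without the strain term (-0.88) and under 1 filter for both assays (-0.55). Against version 3 cells 13 of the 26 were higher in nuclei and 1 in cells (25.8% and 23.8% of all genes), with a median of 0.70. There Insr (0.43, adjusted p = 0.14) and Lrp1 (0.63, adjusted p = 0.09) were not called, and Lrp6 fell to 0.86 (adjusted p = 0.016).

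Transporters followed a similar course. Of 27 tested, 17 were higher in nuclei (34.7% of all genes), 11 by at least 2-fold (24%), none was higher in cells (32.2%) and 10 were not called, with a median of 0.88. Slco1b2, an uptake carrier for organic anions, measured 532 and 856 CPM in DA cells, 682 and 611 in LEW cells, 3168 and 2212 in DA nuclei, and 2047 and 1988 in LEW nuclei. The difference was 1.80 ± 0.24 on the log2 scale, 3.48-fold higher in nuclei (adjusted p = 1.3e-05). Slc38a3, a glutamine carrier, averaged 519.9 CPM in cells and 1326 in nuclei (1.33 ± 0.25, adjusted p = 0.00022) and Slc27a2, which takes up and activates fatty acids, 583 CPM in cells and 1028 in nuclei (0.82 ± 0.23, adjusted p = 0.0061). Slc10a1, the sodium-dependent bile acid carrier, was not called, at 0.00 ± 0.24, adjusted p = 1, except with library totals alone (0.71) and the stricter rule (0.70). Against version 3 cells 8 of the 27 were higher in nuclei and 3 in cells, where 25.8% and 23.8% of all genes were, so the list's share higher in nuclei was near that of all genes; Slc27a2 was not called there (0.35, adjusted p = 0.34).

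Transcription factors of the hepatocyte were divided. Of 36 tested, 19 were higher in nuclei (34.7% of all genes), 12 by at least 2-fold (24%), 4 were higher in cells (32.2%) and 13 were not called, with a median of 0.63. Prox1, a homeobox factor of hepatocyte identity, measured 13.8 and 20.0 CPM in DA cells, 37.2 and 25.9 in LEW cells, 174 and 220.2 in DA nuclei, and 138 and 129.7 in LEW nuclei. This came to 2.78 ± 0.29 (SE) on the log2 scale (adjusted p = 1.9e-06), or 6.87-fold higher in nuclei. Ppara, the nuclear receptor that directs fatty acid oxidation, averaged 3.49 CPM in cells and 26.3 in nuclei (2.56 ± 0.58, adjusted p = 0.0051, or 1.82 without nuclei DA replicate 1), and Srebf1, which drives lipid synthesis, 142 CPM in cells and 338 in nuclei (1.25 ± 0.27, adjusted p = 0.00073, with overlapping libraries). By contrast Cebpa, a factor of mature hepatocytes, measured 351 and 344 CPM in DA cells, 264 and 241 in LEW cells, 126 and 138 in DA nuclei, and 197 and 172 in LEW nuclei. Its log2 difference was -0.92 ± 0.22, with an adjusted p = 0.002. Cebpg was likewise higher in cells at -0.94 ± 0.19, adjusted p = 0.00043, whereas Hnf4a overlapped at 204 to 322 CPM in cells and 181 to 347 in nuclei (-0.12 ± 0.24, adjusted p = 0.67), and Cebpb missed the threshold (0.49 ± 0.22, adjusted p = 0.06) but passed it in several alternatives, among them without TLH DA replicate 2 or nuclei LEW replicate 1 (0.63 and 0.55). Cebpa was not called against version 3 cells, where its difference was -0.25, nor with library totals alone (-0.20), which also removed the call of Cebpg (-0.23); Ppara was 2.46 against version 3 cells (adjusted p = 0.066).

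**Figure D3:**
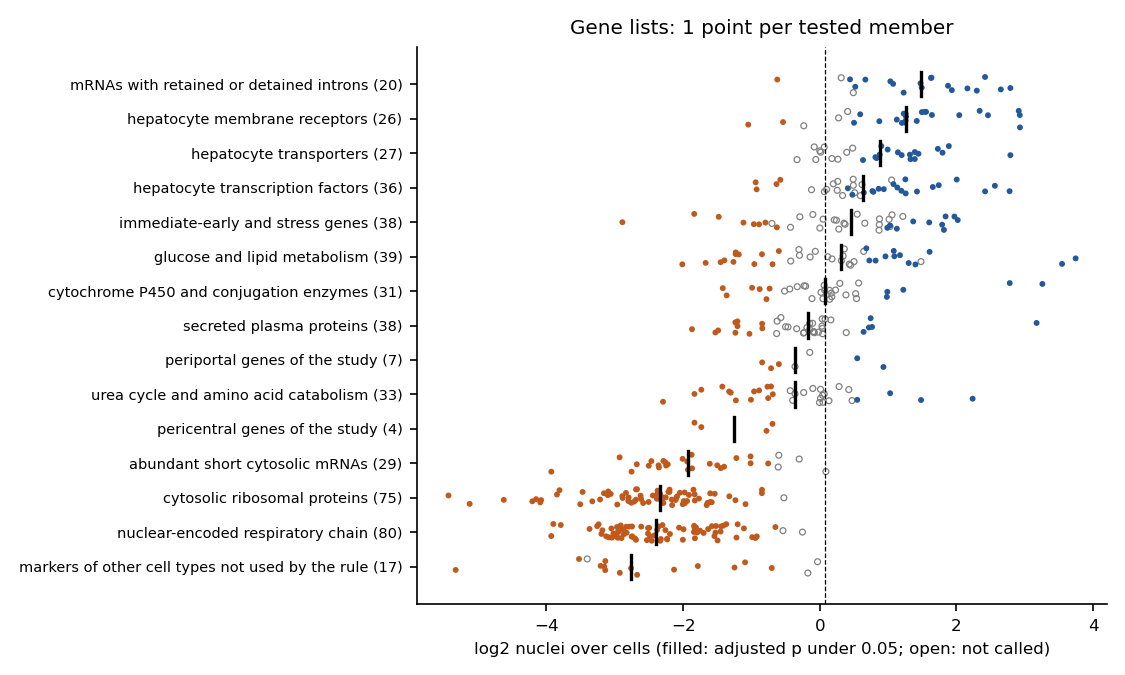
Log2 nuclei over cells for each tested member of 15 gene lists, with the number tested in brackets; filled points passed an adjusted p under 0.05 (blue higher in nuclei, orange higher in cells), open points did not, black bars are list medians and the dashed line is the median of all genes, 0.08. List medians run from 1.49 for mRNAs with retained introns to -2.76 for markers of other cell types.

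mRNAs of the protein-making and respiratory machinery were lower in nuclei. Of 75 genes of cytosolic ribosomal proteins, 74 were higher in cells (32.2% of all genes), 72 by at least 2-fold (20.9%), and only Rpl3 was not called (-0.52 ± 0.23, adjusted p = 0.059), although several alternatives called it, among them without nuclei LEW replicate 1 (-0.74), and with the stricter hepatocyte rule it turned to 0.50 (adjusted p = 0.0084); the median was -2.34. Together they took up 6.36% to 10.4% in cells and 2.44% to 3.96% in nuclei, as a share of UMIs. The groups did not overlap, TLH DA replicate 2 was the lowest of the cells and LEW replicate 1 the highest of the nuclei.

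Rpl41 measured 12195 and 9082 CPM in DA cells, 11469 and 11164 in LEW cells, 1099.6 and 1163 in DA nuclei, and 2032 and 1029 in LEW nuclei. Nuclei were thus 8.34-fold lower, a log2 difference of -3.06 ± 0.29 (SE, adjusted p = 4.2e-07). Rplp1, a protein of the ribosomal stalk, averaged 4114 CPM in cells and 674 in nuclei (-2.61 ± 0.27, adjusted p = 9.4e-07). Rpl37 had the largest difference of the list and spread widely in cells, at 1733 and 257 CPM in DA and 662 and 1362 in LEW, against 17.6 to 39.9 in nuclei (-5.43 ± 0.69, adjusted p = 0.00017); without TLH DA replicate 1 its difference was -4.65. Rpl37a, a separate gene, averaged 4910.4 CPM in cells and 574 in nuclei (-3.10 ± 0.27, adjusted p = 2.6e-07). Ribosomal protein genes have many processed copies in the genome, and how the counting treated reads shared with them is not given, so single members are less certain than the group. The list kept its direction under library totals alone, where 71 of 75 were higher in cells (16.2% of all genes), with a median of -1.65. It did so too against version 3 cells, where 67 of 72 were (23.8% of all genes), with a median of -1.49.

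The nuclear-encoded genes of the respiratory chain moved the same way. Of 80 tested, 78 were higher in cells (32.2% of all genes), 74 by at least 2-fold (20.9%), none was higher in nuclei and 2 assembly factors, Ndufaf1 and Ndufaf4, were not called; the median was -2.40. Cox7c, a subunit of cytochrome c oxidase, measured 2080.4 and 1736 CPM in DA cells, 2424 and 2504 in LEW cells, 122 and 104 in DA nuclei, and 245 and 113 in LEW nuclei. The difference was -3.93 ± 0.28 on the log2 scale, 15.2-fold lower in nuclei (adjusted p = 7.3e-08). Atp5f1e, a subunit of ATP synthase, averaged 3047 CPM in cells and 340.1 in nuclei (-3.20 ± 0.29, adjusted p = 3.3e-07), and Uqcrq, a subunit of complex III, 2772 CPM in cells and 328 in nuclei (-3.09 ± 0.26, adjusted p = 2.1e-07). The list took up 3.06% to 4.30% in cells and 0.852% to 1.38% in nuclei, as a share of UMIs. With version 3 cells 78 of 80 were again higher in cells (23.8% of all genes), with a median of -1.82.

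Other short, abundant cytoplasmic mRNAs were lower in nuclei as well: 25 of 29 were higher in cells (32.2% of all genes), 24 by at least 2-fold (20.9%), none was higher in nuclei and 4 were not called, with a median of -1.93. Fabp1, the fatty acid-binding protein of liver, measured 7956 and 6219 CPM in DA cells, 12475 and 15789 in LEW cells, 1229.9 and 1361 in DA nuclei, and 4017 and 2464 in LEW nuclei. This came to -2.29 ± 0.26 (SE) on the log2 scale (adjusted p = 2.9e-06), or 4.88-fold lower in nuclei. Fth1, the ferritin heavy chain, averaged 9237 CPM in cells and 1806 in nuclei (-2.36 ± 0.28, adjusted p = 4.1e-06), and Prdx1, a peroxidase, 1292 CPM in cells and 169 in nuclei (-2.93 ± 0.22, adjusted p = 9.0e-08). Tmsb10, an actin-binding peptide, had the largest difference of the list at -3.93 ± 0.27, adjusted p = 5.5e-08, and against version 3 cells it was -0.68 (adjusted p = 0.03). Fabp1 was higher in both LEW than in both DA libraries within each assay, and nuclei lay below cells in both strains.

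The 10 genes with the largest differences towards cells were of this kind in part: Rpl37, Rps25 (-4.62 ± 0.39, adjusted p = 6.1e-07), Snrpg of the spliceosome (-4.56 ± 0.37, adjusted p = 6.8e-07), Tomm6 of the mitochondrial import pore (-4.38 ± 0.52, adjusted p = 0.0001) and Mrpl33 of the mitochondrial ribosome (-4.31 ± 0.29, adjusted p = 5.5e-08). Mrpl33 measured 173 and 76.7 CPM in DA cells, 170.4 and 224 in LEW cells, 7.19 and 5.87 in DA nuclei, and 11.7 and 6.76 in LEW nuclei. LOC691427 (-5.36 ± 0.28, adjusted p = 1.1e-08), LOC498555 (-5.16 ± 0.34, adjusted p = 8.1e-08) and AABR07060872.1 (-5.89 ± 0.79, adjusted p = 0.00045, or -7.06 without nuclei LEW replicate 1) have no gene symbol in the files. Crip1 measured 112 and 98.9 CPM in DA cells, 103 and 120.4 in LEW cells, 3.82 and 5.65 in DA nuclei, and 6.96 and 5.76 in LEW nuclei. Its log2 difference was -4.28 ± 0.21, with an adjusted p = 7.8e-09. Fcer1g, the signalling chain of Fc receptors in leukocytes, averaged 71.1 CPM in cells and 3.59 in nuclei (-4.26 ± 0.25, adjusted p = 2.2e-08). Against version 3 cells 7 of the 10 were called in the same direction, all with smaller differences, from -2.91 for Rpl37 to -1.21 for Rps25. AABR07060872.1 and Fcer1g were not called there (adjusted p = 0.11 and adjusted p = 0.36), and Crip1 turned to 0.18 (adjusted p = 0.74).

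RNA of other cell types moved with this comparison. Of 28 markers of leukocytes, Kupffer, endothelial, mesenchymal, biliary and red cells that the rule did not use and the files name, 17 were tested, 14 were higher in cells and none in nuclei (32.2% and 34.7% of all genes), with a median of -2.76. Summed, they made up 0.0481% to 0.120% in cells and 0.0157% to 0.0298% in nuclei, as a share of UMIs. C1qa, a complement gene of Kupffer cells, had a UMI in 14.4% to 22.8% of rule-passing barcodes in TLH libraries and in 15.1% to 21.4% of endothelial-marker barcodes there, against 2.36% to 4.65% and 1.6% to 3.88% in nuclei (median UMIs of endothelial-marker barcodes 2300 to 2472 in TLH and 1265 to 1463 in nuclei), so the shares of the 2 kinds of barcode overlapped in TLH. Cd74, the MHC class II invariant chain, averaged 238 CPM in cells and 26.8 in nuclei (its call was lost with the stricter rule, at -0.90), and C1qb 109.9 CPM in cells and 9.44 in nuclei. Of the 28, 2 had no UMI in any of the 8 sums, among them Krt19 of bile ducts. Against version 3 cells, whose 2 libraries differed widely in this share (0.00453% in DA, from 148 barcodes, and 0.0869% in LEW, within the range of TLH), 8 of 15 tested were higher in nuclei (25.8% of all genes), none in cells, the median was 1.32, and C1qa and C1qb were higher in nuclei (1.65, adjusted p = 0.0040, and 1.32, adjusted p = 0.020). The rule allowed at most 1 UMI of each of its marker sums at any depth. The median version 3 rule-passing barcode had 36892 UMIs in DA and 7375 in LEW, against 1424 to 1671 in nuclei. The limit was thus stricter per UMI in version 3 cells, and no result is read from this reversal. With barcodes limited to at most 1 UMI of these markers, globins aside, 3225 genes were higher in nuclei and 2934 in cells. The part of this RNA in any single difference was not tested otherwise.

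Secreted proteins were divided by gene. Of 38 tested, 5 were higher in nuclei, 10 were higher in cells, 8 by at least 2-fold, and 23 were not called, with a median of -0.17; over all genes 34.7% and 32.2% were higher in nuclei and in cells, and 20.9% in cells at 2-fold, so the count higher in cells does not set the list apart. Apoc1, a small apolipoprotein, measured 36935 and 28605 CPM in DA cells, 22547 and 31524 in LEW cells, 7654 and 7617 in DA nuclei, and 11652 and 5727 in LEW nuclei. Nuclei were thus 3.65-fold lower, a log2 difference of -1.87 ± 0.30 (SE, adjusted p = 5.7e-05). Apoc3 (-1.53 ± 0.29, adjusted p = 0.00029) and Ttr, the thyroxine carrier (-1.20 ± 0.28, adjusted p = 0.0016), were also higher in every cell library, as were 27.6% of all genes. The call of Ttr was lost with library totals alone (-0.50) and with the stricter rule (-0.25). Tf, transferrin, overlapped at 17888 to 31472 CPM in cells and 16472 to 29887 in nuclei (-0.15 ± 0.30, adjusted p = 0.68), and Apoe was not called (-0.63 ± 0.28, adjusted p = 0.06) although several alternatives called it, among them without TLH DA replicate 1 or nuclei LEW replicate 1 (-0.77 and -0.76). Apob, whose long mRNA encodes the scaffold of lipoproteins, was higher in nuclei, averaging 2020.4 CPM in cells and 3363 in nuclei (0.72 ± 0.25, adjusted p = 0.018), although against version 3 cells it was -0.51 (adjusted p = 0.17) and the call was lost without any 1 of TLH DA replicate 1, both TLH LEW libraries and nuclei DA replicate 2 (0.59 to 0.70), under 1 filter for both assays (0.36) and with no Alb limit (0.33). Serpinf2, an inhibitor of plasmin, had the largest difference towards nuclei, 3.62 CPM in cells and 33.3 in nuclei (3.17 ± 0.29, adjusted p = 4.4e-07). With library totals alone the list turned with the bulk of genes: 22 were higher in nuclei and 5 in cells (56.9% and 16.2% of all genes), and its median of 0.56 lay below the 0.81 of all genes.

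Alb itself, which chose the barcodes, is given without a test. It made up 2.22% to 3.97% in cells and 3.44% to 5.28% in nuclei, as a share of UMIs. The 2 ranges overlap. Other genes high in both assays were LOC680406, averaging 39322 CPM in cells and 15970 in nuclei (-1.30 ± 0.26, adjusted p = 0.00048, but -0.44 and not called against version 3 cells), Rup2, a urinary protein family member, 21210 CPM in cells and 6810 in nuclei (-1.64 ± 0.29, adjusted p = 0.00016), and AABR07048474.1, 23934 CPM in cells and 19569 in nuclei (-0.29 ± 0.26, adjusted p = 0.34). The urinary proteins form a family of near-identical copies, so their separate values are uncertain.

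Enzymes of amino acid metabolism were divided by gene as well. Of 33 tested, 14 were higher in cells (32.2% of all genes), 8 by at least 2-fold (20.9%), 4 were higher in nuclei (34.7%) and 15 were not called, with a median of -0.36. Otc, the ornithine carbamoyltransferase of the urea cycle, measured 436 and 396 CPM in DA cells, 419 and 462 in LEW cells, 65.1 and 93.5 in DA nuclei, and 98.8 and 93.1 in LEW nuclei. The difference was -2.29 ± 0.21 on the log2 scale, 4.90-fold lower in nuclei (adjusted p = 3.2e-07). Cps1, the first enzyme of that cycle, averaged 3792 CPM in cells and 2049.9 in nuclei (-0.89 ± 0.22, adjusted p = 0.0024), and Hpd, of tyrosine breakdown, 3265 CPM in cells and 1324 in nuclei (-1.30 ± 0.25, adjusted p = 0.00035); neither was called against version 3 cells (adjusted p = 0.16 and adjusted p = 0.62), nor Cps1 with library totals alone (-0.16). Sds, serine dehydratase, went the other way, at 75.7 and 215 CPM in DA cells, 86.2 and 181 in LEW cells, 1190.1 and 478 in DA nuclei, and 275 and 767 in LEW nuclei. This came to 2.24 ± 0.50 (SE) on the log2 scale (adjusted p = 0.0033), or 4.72-fold higher in nuclei. Tat, tyrosine aminotransferase, averaged 885 CPM in cells and 1823 in nuclei (1.03 ± 0.25, adjusted p = 0.0021), with overlapping libraries. With the stricter rule the calls of Sds (1.23, adjusted p = 0.11) and Tat (0.24, adjusted p = 0.23) were lost. With library totals alone 15 of the 33 were higher in nuclei and 7 in cells (56.9% and 16.2% of all genes). The list's median there was 0.35, below the 0.81 of all genes.

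In glucose and lipid metabolism 12 of 39 genes were higher in nuclei, 12 were higher in cells and 15 were not called, with a median of 0.32; both shares were near those of all genes (34.7% and 32.2%), so the counts set the list apart in neither direction. Acaca, the carboxylase of fatty acid synthesis, measured 0.983 and 2.35 CPM in DA cells, 2.58 and 1.45 in LEW cells, 32.3 and 27.4 in DA nuclei, and 20.4 and 17.3 in LEW nuclei. Its log2 difference was 3.55 ± 0.26, with an adjusted p = 9.0e-08. G6pc, the last enzyme of gluconeogenesis, averaged 972 CPM in cells and 2197 in nuclei (1.18 ± 0.34, adjusted p = 0.0067), with overlapping libraries and its call lost with the stricter rule (0.57, adjusted p = 0.34), and Pck1 was not called (0.36 ± 0.25, adjusted p = 0.22). Acadm, a dehydrogenase of fatty acid oxidation, had the list's largest difference towards cells, 671 CPM in cells and 174 in nuclei (-2.01 ± 0.23, adjusted p = 2.2e-06). Against version 3 cells 8 were higher in nuclei and 14 in cells (25.8% and 23.8% of all genes), with a median of -0.27. A larger share of the list than of all genes was thus higher in cells there. With library totals alone the counts were 24 and 8 (56.9% and 16.2% of all genes), with a median of 1.05 against 0.81 over all genes.

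Of 31 cytochrome P450 and conjugation enzymes, 5 were higher in nuclei, 6 were higher in cells and 20 were not called, with a median of 0.07; fewer were called in each direction than over all genes (34.7% and 32.2%). Cyp2c11, the male-specific P450 of rat liver, averaged 3191 CPM in cells and 1762 in nuclei (-0.88 ± 0.23, adjusted p = 0.0034), a call lost against version 3 cells (-0.37, adjusted p = 0.30) and with library totals alone (-0.15, adjusted p = 0.52), and Cyp2c13 overlapped (-0.23 ± 0.23, adjusted p = 0.39). Cyp2c7 measured 22.6 and 34.6 CPM in DA cells, 104 and 122 in LEW cells, 478 and 484 in DA nuclei, and 351 and 312 in LEW nuclei. Over both strains nuclei were thus 6.88-fold higher, a log2 difference of 2.78 ± 0.50 (SE, adjusted p = 0.00078). By these levels DA lay below LEW in cells and above it in nuclei, and nuclei lay above cells in both strains. The clone-named AABR07035343.1, which RefSeq lists under Cyp3a23-3a1, had the largest difference towards nuclei at 3.26 ± 0.63, adjusted p = 0.003, and without nuclei DA replicate 2 it was 2.54. Sult1a1, a sulfotransferase, had the list's largest difference towards cells, 596 CPM in cells and 234 in nuclei (-1.42 ± 0.28, adjusted p = 0.00036). Members of the Cyp2c and Cyp3a families resemble each other, so reads may have been split among them. Scaled by library totals alone, 20 of the 31 were higher in nuclei and 2 in cells (56.9% and 16.2% of all genes). The list's median there was 0.79, near the 0.81 of all genes.

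Markers of the lobule's zones were those that the study takes from earlier work on zonation. All 4 pericentral genes were higher in cells, too few to set beside the 32.2% of all genes. Glul, glutamine synthetase, measured 238 and 127 CPM in DA cells, 204 and 376 in LEW cells, 45.1 and 47.4 in DA nuclei, and 62.8 and 117 in LEW nuclei. The difference was -1.83 ± 0.28 on the log2 scale, 3.56-fold lower in nuclei (adjusted p = 4.1e-05). Oat averaged 703 CPM in cells and 213 in nuclei (-1.73 ± 0.27, adjusted p = 4.9e-05), Cyp2e1 2500.2 CPM in cells and 1458 in nuclei (-0.78 ± 0.25, adjusted p = 0.011, or -0.63 with the call lost without nuclei DA replicate 1, and -0.11 and not called with the stricter rule) and Sult1e1 1668 CPM in cells and 1025 in nuclei (-0.69 ± 0.21, adjusted p = 0.0095, but -0.05 with the stricter rule). None of the 4 was called against version 3 cells, where all were above 0 (0.33 to 0.49). Of 7 periportal genes, 2 were higher in nuclei, 3 were higher in cells and 2 were not called, too few to set beside the 34.7% and 32.2% of all genes. Srd5a1 differed by 0.93 ± 0.22, adjusted p = 0.0015, but by -0.03 against version 3 cells and 0.45 under 1 filter for both assays (adjusted p = 0.11), and Ass1 by -0.71 ± 0.26, adjusted p = 0.025, a call lost without any 1 of both TLH LEW libraries, nuclei DA replicate 2 and nuclei LEW replicate 2 (-0.67 to -0.57) and against version 3 cells (-0.45). With library totals alone 2 pericentral genes were higher in cells and 0 in nuclei, and of the periportal genes 3 were higher in nuclei and 0 in cells. Over all genes 16.2% were higher in cells and 56.9% in nuclei under that scaling.

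Immediate-early and stress genes did not move as 1 group. Of 38 tested, 10 were higher in nuclei, 8 were higher in cells and 20 were not called, with a median of 0.46; both shares lay below those of all genes (34.7% and 32.2%). Those higher in nuclei were transcription factors and early response genes: Jun measured 197 and 248 CPM in DA cells, 105 and 163 in LEW cells, 876 and 713 in DA nuclei, and 270.4 and 665 in LEW nuclei, 1.82 ± 0.28, adjusted p = 3.9e-05, and Btg2 averaged 156 CPM in cells and 574 in nuclei (1.79 ± 0.30, adjusted p = 0.00011, with overlapping libraries). Klf6 differed by 2.02 ± 0.74, adjusted p = 0.047, but nuclei DA replicate 1 held 51.9 CPM against 2.98 to 11.1 in the other nuclei libraries, and without it the difference was 1.15 (adjusted p = 0.046). The call was lost without any 1 TLH library or nuclei LEW replicate 2 (1.68 to 2.31) and against version 3 cells (1.11). It was also lost with the replicate block (1.66), RLE size factors (2.06), no filter on low counts (1.97), no strain term (2.28) and the top 5% by UMIs left out (1.88). Dusp1, a phosphatase of MAP kinases, averaged 802 CPM in cells and 1548 in nuclei (0.99 ± 0.27, adjusted p = 0.004) and Gadd45g 358 CPM in cells and 1087 in nuclei (1.6 ± 0.56, adjusted p = 0.033), both with overlapping libraries. With the stricter rule Dusp1 was 0.22 (adjusted p = 0.31) and against version 3 cells 0.62 (adjusted p = 0.12), so its call was lost in both. The call of Gadd45g was lost without any 1 of both TLH DA libraries, TLH LEW replicate 1, nuclei DA replicate 1 and nuclei LEW replicate 2 (1.03 to 1.85), with the stricter rule (0.84) and against version 3 cells (1.58). Fos and Egr1 were not called (0.87 ± 0.94, adjusted p = 0.45 and 1.06 ± 0.81, adjusted p = 0.29), and both moved when 1 library was left out: Fos was 1.46 (adjusted p = 0.039) without nuclei LEW replicate 1 and 0.21 without nuclei DA replicate 1, and Egr1 was -0.01 without nuclei LEW replicate 2 but called with the replicate block (0.77, adjusted p = 0.016). Of the 8 higher in cells, 6 were chaperones, among them Hspb1, 34.4 CPM in cells and 4.71 in nuclei (-2.89 ± 0.20, adjusted p = 5.5e-08), and Hspa8, 263 CPM in cells and 73.1 in nuclei (-1.84 ± 0.23, adjusted p = 5.6e-06). Scaled by library totals alone, 17 of the list were higher in nuclei and 3 in cells, both below the shares of all genes (56.9% and 16.2%).

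The mitochondrial genome was read in both assays, and its total was bounded by the limits on barcodes, so only its make-up is described. Mt-atp6, a subunit of ATP synthase, made up 19.7% to 20.9% of Mt- UMIs in the 4 TLH sums and 2.97% to 4.44% in the 4 nuclei sums. Mt-co1, a subunit of cytochrome c oxidase, made up 21.9% to 22.6% in cells and 29.6% to 38.6% in nuclei. Mt-nd6, the one protein gene on the other strand of the mitochondrial genome, made up 0.0509% to 0.0985% in cells and 0.553% to 0.689% in nuclei. In rule-passing barcodes of the version 3 immune-enriched libraries Mt-atp6 made up 13.6% and 16.9% and Mt-nd6 0.0624% and 0.0730%, so both lay nearer to TLH cells than to nuclei. Other Mt- genes went the other way: Mt-nd4l made up 0.180% and 0.182% there, within the 0.161% to 0.235% of nuclei and above the 0.0365% to 0.0714% of TLH cells, and Mt-nd4 7.26% and 8.25%, above the 5.55% to 6.52% of nuclei and the 3.37% to 4.56% of TLH cells. These genes were picked after their values were seen.

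Genes on each side differed in genomic span, a property the rule did not use. Of the genes tested, 9392 matched RefSeq's gene table for GRCr8 by symbol or synonym (92.0%), and 9351 of the matches were protein-coding and not used by the rule. Among genes spanning under 3 kb, 11.9% were higher in nuclei and 65.8% in cells, with a median of -1.19. Among those over 100 kb, 54.7% were higher in nuclei and 14.3% in cells, with a median of 0.71, and the 3 classes between lay in order, at -0.50, -0.07 and 0.34. With ribosomal and respiratory chain genes left out the shortest class had a median of -1.0, and among genes with at least 50 CPM the range ran from -1.71 to 0.50. This is a description across genes, which are not replicates. It was made with TLH cells and TMM scaling only. Whether intronic reads were counted is not given in the sources used here, and their part in this trend was not tested. Leaving out the 13 Mt- genes, the 799 genes with no match had a median of 1.03, with 53.4% higher in nuclei and 26.9% in cells.

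**Figure D4:**
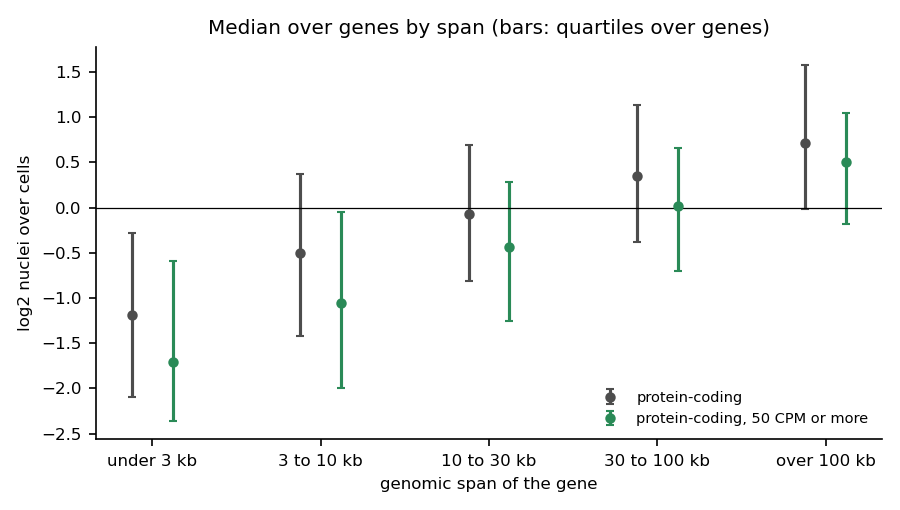
Median log2 nuclei over cells of protein-coding genes in 5 classes of genomic span, for all such genes tested and for those with a mean of at least 50 CPM; bars are the quartiles over genes. The median rises from -1.19 under 3 kb to 0.71 over 100 kb, and the quartile bars of neighbouring classes overlap.

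Rule-passing nuclei differed with depth. In nuclei of 1000 to under 1500 UMIs AC134224.1 measured 1286, 497, 73.2 and 925 CPM, here without TMM scaling, in DA replicates 1 and 2 and LEW replicates 1 and 2. In nuclei of 3000 or more UMIs of the same libraries it measured 7664, 8312, 4187 and 7782. The ribosomal protein genes went from 3.63% to 4.65% down to 1.51% to 3.20%. mRNAs with retained introns went from 0.0625% to 0.229% up to 0.538% to 0.957%. The shallow nuclei were the larger class, 607 to 2390 per library against 234 to 405 of the deep ones, and they did not all stand apart from cells. TLH barcodes of 2000 to under 3000 UMIs held AC134224.1 at 39.4 to 146 CPM and retained-intron mRNAs at 0.0988% to 0.126%. Of the shallow nuclei, LEW replicate 1 lay within the first range and below the second, at 0.0625%. DA replicate 2 lay within the second, at 0.106%, and the remaining values lay above. Ribosomal protein genes stayed below the 5.68% to 10.5% of those TLH barcodes.

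At a shared depth of 2000 to under 3000 UMIs the assays stood apart in these measures. AC134224.1 measured 39.4 to 146 CPM in cells, without TMM scaling, and 3104 to 7730 in nuclei, and ribosomal protein genes made up 5.68% to 10.5% in cells and 1.87% to 3.53% in nuclei. Among barcodes within the limits on UMIs and Mt- genes, the Alb limit left out 305 to 837 nuclei per library against 38 to 270 TLH barcodes. Under 1 filter for both assays, at least 2000 UMIs and at most 10% Mt- UMIs, 3670 of 9744 genes (37.7%) were higher in nuclei and 3395 (34.8%) in cells, and the medians moved further apart, to -3.22 for ribosomal protein genes and 1.81 for mRNAs with retained introns. LEW replicate 1, the nuclei library with the most rule-passing barcodes, was lowest in AC134224.1 and highest in ribosomal protein genes in every depth class.

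**Figure D5:**
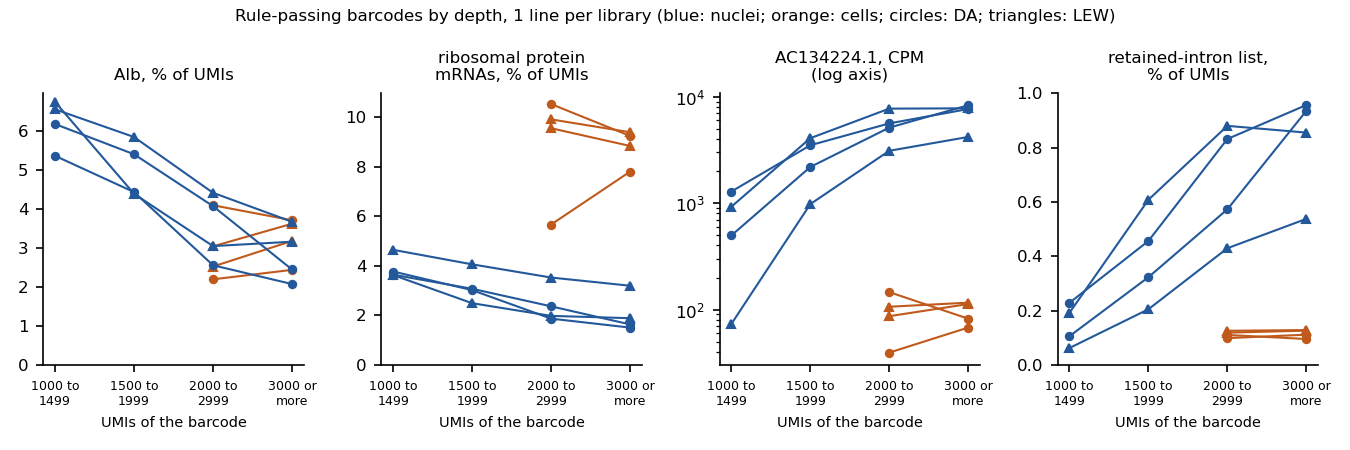
Rule-passing barcodes of each library divided by their UMIs, 1 line per library (blue nuclei, orange cells, circles DA, triangles LEW), showing Alb, ribosomal protein genes and mRNAs with retained introns as percent of UMIs and AC134224.1 in CPM without TMM scaling on a log axis. In nuclei ribosomal protein genes are lower and retained-intron mRNAs and AC134224.1 mostly higher with depth; the Alb share was used by the rule and is shown as a description only; TLH barcodes start at 2000 UMIs.

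The number of genes detected overlapped between the assays once depth was made equal. Thinned to 1000 UMIs per barcode, with no rule-passing barcode left out, the median number of genes was 488.5 ± 15.6 in cells and 490.5 ± 17.3 in nuclei (SD over 4 libraries each), with values of 466 to 500 and 477 to 515. The difference of 2.0 genes had p = 0.857 by a two-sided exact permutation test, whose smallest possible p is 0.0286. Unthinned medians were 862 to 927 genes in cells and 610 to 771 in nuclei. Under 1 filter for both assays, nuclei exceeded cells by 86.0 genes, with all nuclei libraries above all cell libraries (exact p = 0.0286). Nuclei also exceeded version 3 cells, whose medians were 395 and 411 genes, by 87.5 genes (exact p = 0.133), without overlap.

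Whether the difference between cells and nuclei itself depended on strain was tested with a strain by assay term over 10725 genes. edgeR called 0 genes; 681 genes (6.35%) had an unadjusted p under 0.05. DESeq2 called 8, edgeR without a filter on low counts 30, RLE size factors 3 and 1 filter for both assays 2. On data simulated for this comparison the test recovered 10% of terms of 1 and 72% of terms of 2 on the log2 scale, so strain effects of 2-fold were seldom recovered. These rates are for genes above a limit on mean UMIs, simulated with the same dispersion, and do not cover genes of low level.

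Endothelial-marker barcodes of the same 8 libraries (1825 in all) were used to ask which differences were larger in rule-passing barcodes. Of 5289 genes tested in them, 35.9% were higher in nuclei and 35.6% in cells, with a median of 0.08. Here 68 of 68 ribosomal protein genes were higher in cells, with a median of -2.99, and 18 of 20 mRNAs with retained introns were higher in nuclei, with a median of 1.96. Lists of metabolism and secretion had lower medians than in rule-passing barcodes: -0.82 against -0.17 for secreted plasma proteins (26 of 38 against 10 of 38 higher in cells), -0.37 against 0.07 for cytochrome P450 and conjugation enzymes, and -0.42 against 0.32 for glucose and lipid metabolism; the differences between these medians were not tested. All 10 genes with the largest differences towards nuclei in rule-passing barcodes were called in the same direction, as were 9 of 9 tested of the 10 towards cells. The endothelial-marker barcodes were not a like class in both assays. Stab2, an endothelial gene, had a UMI in 4.30% to 8.56% of them in TLH and in 47.6% to 59.3% in nuclei. The shared calls are therefore not read as a property of another cell type. A class by assay term called 115 of 11349 genes with a larger, or less negative, difference in rule-passing barcodes (1.01%) and 592 with the opposite sign (5.22%). This split did not hold: it was 410 against 359 with RLE size factors and 1308 against 228 without nuclei DA replicate 1, so no count of either sign is read from it.

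Single terms differed in how steady they were: of the 10 largest called terms at 50 CPM or more in any group, 5 of each sign, 4 were called in all 13 alternatives and the other 6 in 8 to 12. The largest of these, that of AABR07007055.1, was -5.95 ± 1.57 (SE, adjusted p = 0.0062) but was called in 8 of the 13 (-6.19 to -2.81), and the gene had no UMI in endothelial-marker cells, so its size depends on the prior count of the fit. Flrt3, a membrane protein of cell adhesion, averaged 1.17 CPM in rule-passing cells and 44.8 in rule-passing nuclei, against 15.1 and 62.5 in endothelial-marker barcodes, a term of 3.20 ± 0.40 (adjusted p = 2.1e-12) that was called in 13 of 13 alternatives (2.91 to 3.89). Apold1, an endothelial gene of the early response, averaged 3.07 and 0.922 in rule-passing barcodes against 21.4 and 92.1 in endothelial-marker barcodes, a term of -3.39 ± 0.50 (adjusted p = 4.1e-09), also called in all 13 (-4.25 to -1.85). Most TLH endothelial-marker barcodes carried Alb at a like level to rule-passing barcodes, and the part of this RNA in the terms was not tested.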

How the data were processed

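The authors aligned reads with Cell Ranger 3.1.0, per the submitters' processing notes, and deposited each library's UMI counts unnormalized; whether intronic reads were counted is not given in the sources used here. The TLH counts come without a gene list, and rows were named by position from that of a nuclei library. Log2 CPM of each pair of a cell and a nuclei library then correlated over all rows at r = 0.909 to 0.961. With rows shifted by 1 it was 0.167 to 0.172. Of the symbols, 160 belong to several gene IDs.

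Hepatocyte barcodes were chosen with limits of 2000 UMIs and 40% Mt- UMIs for TLH, 1000 and 10% for nuclei, and 1000 and 50% for immune-enriched cells, and their counts were summed per library. The members, gene lists and limits were chosen with earlier results of these data known. Sums were tested with the quasi-likelihood test of edgeR 4.0.16 (R 4.3.3, TMM scaling, filterByExpr, robust dispersion, strain and assay as terms, Benjamini-Hochberg adjustment at 0.05), which gave every adjusted p. On simulated data for cells against nuclei (9624 genes) it recovered 80% of changes of 1 and 100% of changes of 2 on the log2 scale. Changes were placed only in genes above a limit on mean UMIs, and every gene had the same median dispersion. The rates therefore do not cover genes of low level or wide spread. Genes per barcode were compared after thinning to 1000 UMIs, with an exact permutation test of the 4 against 4 library medians (SciPy 1.17.1). The sums held 2876382 to 18832777 UMIs, and this depth limits genes of low level most in nuclei.

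Named genes were the 10 with the largest change in each direction among those called, with the assays' libraries apart and at least 50 CPM in the higher group; in each list the 4 most abundant members and the called member with the largest change each way; the 10 most abundant genes of each assay; and the 5 largest class terms each way. Other list members were named for their known role after values were seen. Alternatives were RLE size factors, upper-quartile factors, library totals alone, DESeq2 1.42.0, no filter on low counts, no Mt- genes, a stricter hepatocyte rule, 1 filter for both assays, the study's TLH limits, the 5% of barcodes with the most UMIs left out, version 3 cells, no strain term, the replicate number as a block and each library left out; no Alb limit and at most 1 UMI of other cell types' markers were added after seeing the data. Doublets were not called. Sections profiled with Visium were not analysed here.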

Additional observations from a re-analysis of the deposited data

Results flagged for a closer look

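In a group of 4 libraries of 1 assay, the highest or lowest was marked when its gap to the nearest of the others, over the whole range, exceeded Dixon's critical value for 4. This held in 42 of 314 groups, and chance gives about 1 in 20. Because genes of a list share their libraries, these marks are not separate events.

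Nuclei LEW replicate 1, the nuclei library with the most rule-passing barcodes, stood above the other nuclei in genes of translation and respiration. Rpl37 measured 39.9 CPM (others 17.6 to 18.5), Rpl41 2032 (1029 to 1163), Rplp1 1009 (532 to 602) and Rpl35 684 (333 and more). Ribosomal protein genes together made up 3.96% of its UMIs against 2.44% to 2.55%. Atp5f1e measured 568 CPM, Cox6c 463, Cox8a 586 and Cox7c 245, each above the other 3. Tomm6 stood at 5.63 CPM, Apoc3 at 12121, Apoe at 9561, Mgst1 at 3009, Serpina1 at 7731 and C1qb at 14.3.

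Nuclei DA replicate 1 was highest in Lpin1 at 602 CPM (others 28.8 to 47.2), Klf6 at 51.9 (2.98 to 11.1), Ppara at 67.6 (8.01 to 17.6), Ttc39a at 102 (45.3 to 53.8), AABR07007055.1 at 116 (30.5 to 38.5) and Bhmt at 2301 (1458 to 1554). Its Otc, 65.1 CPM, was the lowest. Nuclei DA replicate 2 was lowest in Asgr1 at 305 CPM. In nuclei LEW replicate 2, Hbb of red cells measured 1.5 CPM against 0 in the others, and markers of other cell types made up 0.0298% of UMIs.

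TLH DA replicate 2, which had the most Mt- UMIs, was the highest of the cells in Lpin1 at 26.6 CPM, Dusp1 at 1351, Orm1 at 1595, Insr at 22.2 and Ass1 at 1766. It was the lowest in Rplp1 at 2952 CPM, Rpl35 at 2719 and the respiratory chain share at 3.06%, and its 10 most abundant genes took up 26.7% of UMIs against 20.9% to 21.7%. TLH DA replicate 1 was lowest in AC134224.2 at 1.31 CPM and Serpina1 at 7439 (others 12771 to 13600). TLH LEW replicate 1 was highest in Hcn3 at 7.98 CPM and lowest in AABR07048474.1 at 20477 and Egr1 at 37.2 (125.9 and more in the others). TLH LEW replicate 2 was highest in Hba-a2 at 546 CPM (others 38.1 to 84.6), Apoc3 at 24280 and Hnrnpu at 118. Differences between the strains' effects are given above by count alone, since edgeR's strain by assay term called 0 genes (681 at an unadjusted p under 0.05) and DESeq2 called 8.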

How the results depend on the processing

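Over 134 named genes (110 by the rule and 24 after values were seen), 3204 values were compared with the reported ones. Of these, 15 turned the direction of a called difference, in 14 genes, and 8 were called only in the opposite direction to an uncalled one, in 7 genes; 38 others turned sign without a call on either side. With version 3 cells the first kind were Crip1 (0.18), Cyp2e1 (0.49), Sult1e1 (0.33), Oat (0.40), Glul (0.38), Cd74 (0.29), C1qa (1.65), C1qb (1.32), Srd5a1 (-0.034) and Apob (-0.51). With library totals alone they were Hnrnpu (0.12), Asgr1 (0.20), Ass1 (0.0049) and Sult1e1 (0.035), and with the stricter hepatocyte rule Hsp90ab1 (0.11). The second kind were AC134224.3 with version 3 cells (3.31), Tf (0.58), Hnf4a (0.58), Cyp2c13 (0.49) and Cyp2c23 (0.52) with library totals alone, and Tf (0.55), Rpl3 (0.50) and AABR07048474.1 (0.69) with the stricter rule. Of values of called genes, leaving out a library kept 834 past the threshold in the same direction and took 37 below it, and the other settings kept 1640 and took 79 below it, 22 with version 3 cells, 15 with the stricter rule and 13 with library totals.

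Genes higher in nuclei numbered 5811 with library totals and 2013 with the stricter rule, where 7483 genes were tested, and those higher in cells 1653 and 1961. At 2-fold the counts were 4434 and 945 for nuclei and 1024 and 889 for cells. Without single libraries they ran from 3238 to 3683 for nuclei and from 3045 to 3296 for cells. The strain term called 3 genes with RLE size factors, 30 with no filter on low counts, 8 with DESeq2, 2 under 1 filter for both assays and 0 to 4 without single libraries. Positive class terms numbered 421 (DESeq2), 410 (RLE) and 69 (1 filter), and 44 to 1308 without single libraries. Negative terms numbered 164, 359 and 108, and 122 to 423. Nuclei exceeded cells by 86.0 genes at 1000 UMIs under 1 filter and by 87.5 with version 3 cells. The difference without single libraries ran from -6.17 to 6.5, below 0 without TLH DA replicate 2 (-5.50) and without nuclei LEW replicate 2. Causes were not tested.

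Animal numbers in the file names pair the DA libraries crosswise to their replicate numbers, and whether any pairing holds was not settled: deviations of same-numbered cell and nuclei libraries correlated at r = -0.185 in DA and 0.179 in LEW over 2952 genes. With the replicate number as a block 3686 genes were higher in nuclei and 3424 in cells, and with the DA numbers crossed 3810 and 3505. With 4 libraries per assay, low-level genes and small strain effects were limited by depth and number.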
